A study of Mus musculus with 6 samples.

Results

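The Slc25 genes encode the mitochondrial carriers, small membrane proteins that move nucleotides, phosphate, amino acids, carboxylates, cofactors and iron across the inner mitochondrial membrane. Members were taken by symbol: gene probes whose accession maps in RefSeq to a mouse Slc25a symbol, with the brightest probe standing for each gene. The array carried 55 probes for 46 such genes, of 20659 features measured in all. Of the 46, 38 passed the filter on dim probes and 8 did not.

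RNA came from livers of male Apoe-deficient mice on the C57BL/6J background, so both groups lacked apolipoprotein E. The control group (9 mice) ate a purified Western diet with 0.15% cholesterol and 20% palm oil for 11 weeks, and the treated group (10 mice) ate the same diet with 1% squalene, stated as equivalent to 1 g/kg. Squalene is an intermediate of cholesterol synthesis that is also taken in with food. Each diet gave 4 RNA pools of 2 or 3 livers, and each two-colour array set 1 squalene pool against 1 Western pool, so that 6 arrays formed 4 pool pairs. Squalene was labelled with Cy5 in pairs 1 and 4 and with Cy3 in pairs 2 and 3, and only pairs 1 and 2 had a repeat array.

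Carriers of this family share a fold of repeated helix pairs around a central channel, and most exchange a substrate of the mitochondrial matrix for one of the cytosol. In liver they link the pathways that are split between those compartments: ATP export, the urea cycle, the malate-aspartate shuttle, citrate export for lipid synthesis, and the supply of cofactors such as NAD and coenzyme A. Slc25a17 is an exception by location, since it sits in the peroxisomal membrane, and Slc25a46 lies in the outer mitochondrial membrane and acts in membrane dynamics.

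The arrays had 62976 spots each, and 48.67% to 54.16% of the gene spots passed the scanner software's test for signal over background; 0 were saturated. Log2 ratios of the repeat arrays correlated across features at r = 0.85 for pair 1 and 0.88 for pair 2, as a description across genes of the same RNA. All 12 listed hepatocyte markers were measured and none of 5 muscle markers was (0 of 5), while 4 of 5 adipocyte markers were not measured. Between 7 and 12 of the red cell, Kupffer cell, stellate cell and fibroblast, endothelial and lymphocyte markers were measured. The liver pools thus held RNA of these cells too. In whole liver, fewer cells of a type and less RNA per cell cannot be told apart.

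The question was which carriers, if any, differed when squalene was added to the Western diet. None of the 38 measured carriers passed an adjusted p of 0.05 in limma's linear model with Benjamini-Hochberg adjustment over all features (0 carriers, with 1 at an unadjusted p under 0.05); the background was 0% of all features. At an unadjusted p under 0.05, 1 carrier, Slc25a51, was called, which is 2.63% of those measured against 2.46% of all 20659 features. Fitted log2 ratios of squalene over Western ran from -0.17 for Slc25a30 to 0.24 for Slc25a51. Their median was 0.027, against 0.0029 for all features, and 22 of 38 were above 0 (57.9%, against 51.8% of all features). The adjusted p of every carrier was 1.00 by limma with Benjamini-Hochberg adjustment.

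The size of change that the fit allowed was small for most carriers. Its SEs draw on the spread of all features as well as that of the gene, so they can be narrower than the gene's 4 pairs alone would give. The 95% interval of the fitted ratio lay inside a change of 1.5-fold in either direction for 36 of 38 carriers (94.7%), against 96.6% of all features. The exceptions were Slc25a30 and Slc25a32. Without the term for dye orientation, whose SE then takes in the difference between pairs 1 and 4 and pairs 2 and 3, the count was again 36, against 95.6% of all features. Slc25a13, with an SD of 0.42 between pairs, had a log2 interval of -0.094 to 0.27 with the dye term. Without that term it was -0.29 to 0.47. The narrowest spread between pairs was that of Slc25a3, with an SD of 0.043, and the widest that of Slc25a30, with an SD of 0.78; the median SD was 0.19 for carriers and 0.16 for all features. Log2 ratios of the repeat arrays differed by a median of 0.088 in pair 1 and 0.046 in pair 2.

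**Figure D1:**
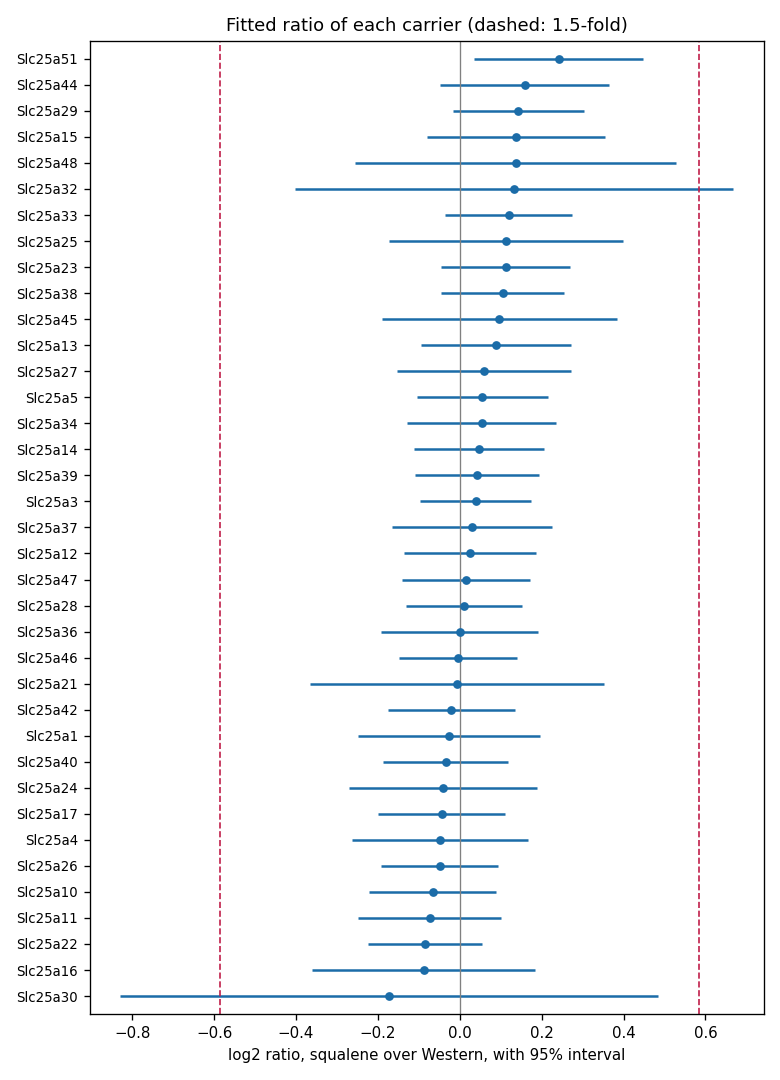
Fitted log2 ratio of squalene over Western for 37 of the measured carriers (points) with its 95% interval from limma (bars); dashed lines mark a 1.5-fold change. The intervals of Slc25a30, from -0.83 to 0.48, and Slc25a32, from -0.40 to 0.67, cross a dashed line, and that of Slc25a51 lies above 0.

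Slc25a51, Slc25a33 and Slc25a44 had a ratio above 0 in each of the 4 pairs: 3 carriers, or 7.89% of those measured, against 3.34% of all features. The reverse, a ratio below 0 in each pair, was seen in 0 carriers (against 3.04% of all features). In none of the 38 carriers did the 4 squalene pools and the 4 Western pools occupy separate ranges of intensity (0, against 0.775% of all features).

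Promoter sequences are shown for 2 of the carriers that the values below turn on: Slc25a33, above 0 in every pair, and Slc25a30, the most variable between pairs. They cover 250 bases before to 50 after the gene start, from RefSeq on GRCm38.p6, on the gene's own (minus) strand, 5′ to 3′. Capitals mark the GC box letters GGGCGG, or their reverse complement CCGCCC, and the E-box letters CACGTG. The Slc25a33 sequence lies at chr4:149774218-149774517, with a GC content of 66.0%, and the Slc25a30 sequence at chr14:75786988-75787287, with 66.7%.
Slc25a33: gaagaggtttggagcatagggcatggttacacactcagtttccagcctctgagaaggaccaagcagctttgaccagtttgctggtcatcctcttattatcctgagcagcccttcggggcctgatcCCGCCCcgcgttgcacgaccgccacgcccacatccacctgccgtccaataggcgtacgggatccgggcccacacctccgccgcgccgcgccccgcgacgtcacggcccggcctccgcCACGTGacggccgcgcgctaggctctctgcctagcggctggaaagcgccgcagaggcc
Slc25a30: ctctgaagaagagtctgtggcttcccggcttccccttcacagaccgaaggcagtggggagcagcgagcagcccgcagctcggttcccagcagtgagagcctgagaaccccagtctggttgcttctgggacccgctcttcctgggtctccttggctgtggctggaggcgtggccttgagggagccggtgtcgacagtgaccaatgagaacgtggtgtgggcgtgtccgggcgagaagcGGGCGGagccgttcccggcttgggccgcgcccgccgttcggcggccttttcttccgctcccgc
The Slc25a33 window held 1 GC box and 1 E-box, and the Slc25a30 window 1 GC box and 0 E-boxes. RefSeq promoter entries were matched for 35 of the 46 carriers. On either strand and in any listed start of the gene, GGGCGG was present in 29 of the 35 (82.9%), against 49.2% of 17492 protein-coding genes with an entry, and CACGTG in 7 (20.0%), against 8.91%. The ETS-type letters CCGGAAG were in 6 (17.1%, against 12.9%), the NRF1-type letters GCGC, any base, TGCGC in 2 (5.71%, against 7.17%) and the half-site letters AAGGTCA in 1 (2.86%, against 4.73%). These letter patterns do not contain one another, genes with several listed starts had several windows, and a match describes letters only.

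Slc25a51 imports NAD into mitochondria. Its log2 intensity in pairs 1 to 4 was 10.21, 10.34, 10.91 and 10.33 in squalene pools and 10.11, 10.23, 10.47 and 10.02 in Western pools. The squalene pool was the brighter of each pair, but the Western pool of pair 3 exceeded 3 of the 4 squalene pools, so the groups overlapped. The log2 ratios were 0.10, 0.11, 0.45 and 0.30, with a mean of 0.24 ± 0.16 (SD, n = 4; SE 0.081), or 1.18-fold with a 95% interval of 1.02 to 1.36 (limma unadjusted p = 0.0299, adjusted p = 1.00). The other Slc25a51 probe that passed the filter read 0.093, 0.0042, 0.61 and 0.11. When 1 pair is left out, the remaining pair of its dye orientation counts as much as both pairs of the other orientation, which alone give the spread between pairs. Without replicate 3 the fitted ratio was 0.16 (limma unadjusted p = 0.109), without replicate 4 it was 0.19 (limma unadjusted p = 0.144), and the call was also lost with median centring (p = 0.0595), with the mean over probes (p = 0.0592) and with the authors' deposited table (p = 0.0906). Over the alternatives with a test, the limma unadjusted p ran from 0.0121 to 0.144.

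Of the other carriers for nucleotides and cofactors, Slc25a33, a pyrimidine nucleotide carrier, had the steadier ratios. In pairs 1 to 4 its log2 intensity was 11.64, 11.40, 11.52 and 11.31 with squalene and 11.54, 11.37, 11.30 and 11.19 without. Pairs differed in level by more than the diets did, and the pools overlapped. Its ratios were 0.10, 0.034, 0.22 and 0.12, with a mean of 0.12 ± 0.078 (SD, n = 4; limma unadjusted p = 0.104, adjusted p = 1.00). Its other probe had the opposite sign in pair 2, at -0.019.

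Slc25a32, which carries folate and flavin adenine dinucleotide, was the least settled of this group. Its ratios in pairs 1 to 4 were -0.15, -0.42, 0.76 and 0.34, on intensities of 8.84, 8.74, 9.27 and 8.93 with squalene and 9.00, 9.16, 8.51 and 8.59 without. Pairs 1 and 2 were below 0 and pairs 3 and 4 above it, so its mean of 0.13 ± 0.53 (SD, n = 4) is no common change. The other pyrimidine carrier Slc25a36 and the S-adenosylmethionine carrier Slc25a26 had means of -0.00056 and -0.050, and each had pairs on both sides of 0.

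**Figure D2:**
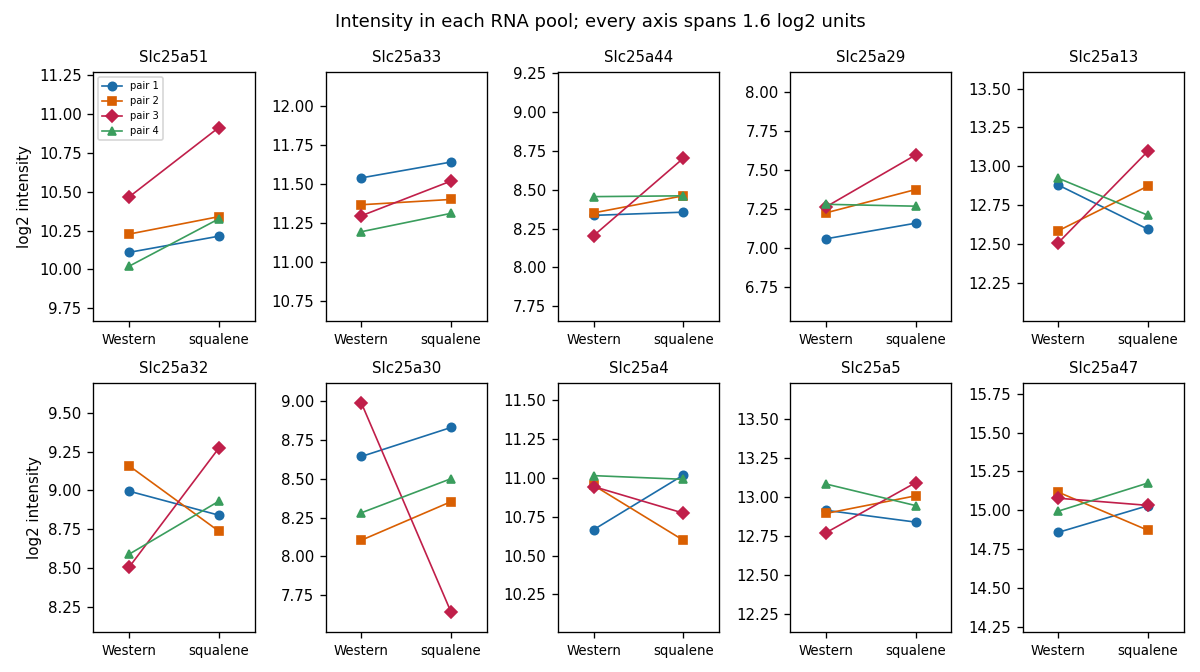
Log2 intensity of 10 carriers in each RNA pool, Western on the left and squalene on the right of each panel, with a line and colour for each pool pair; every axis spans 1.6 log2 units but starts at its own level. All lines rise for Slc25a51, Slc25a33 and Slc25a44, lines cross for Slc25a13, Slc25a32 and Slc25a4, and pair 3 of Slc25a30 falls from 8.99 to 7.64.

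Slc25a3, the phosphate carrier that feeds ATP synthase, had ratios of 0.050, 0.035, -0.018 and 0.086 in pairs 1 to 4, with intensities of 12.78 to 12.90 in squalene pools and 12.73 to 12.89 in Western pools. Its mean was 0.038 ± 0.043 (SD, n = 4), and its 95% interval was 0.934 to 1.13 on the fold scale. The other Slc25a3 probe spread more widely, from -0.15 to 0.29 over the pairs.

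The adenine nucleotide translocases Slc25a4 and Slc25a5 exchange ATP for ADP. Slc25a4, the form best known from heart and muscle, had ratios of 0.35, -0.35, -0.17 and -0.024, on intensities of 11.02, 10.60, 10.77 and 10.99 with squalene and 10.67, 10.95, 10.94 and 11.01 without. Slc25a5, the broadly expressed form, had ratios of -0.076, 0.11, 0.32 and -0.14. In pairs 1, 2 and 3 the paralogs stood on opposite sides of 0. Their means were -0.049 ± 0.30 for Slc25a4 and 0.055 ± 0.21 for Slc25a5 (SD, n = 4; limma adjusted p = 1.00 for each). The germ cell form Slc25a31 was not well above background in any pool.

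Slc25a23, Slc25a24 and Slc25a25 are calcium-regulated carriers that exchange ATP-Mg for phosphate and so set the adenine nucleotide pool of the matrix. Slc25a23 had ratios of -0.11, 0.20, 0.31 and 0.058 (mean 0.11 ± 0.18; SD, n = 4), and Slc25a24 had 0.22, 0.0099, -0.20 and -0.20 (mean -0.041 ± 0.20; SD, n = 4). Pair 1 was thus the lowest in Slc25a23 and the highest in Slc25a24. Slc25a25 had ratios of -0.15, 0.0035, 0.13 and 0.46 (mean 0.11 ± 0.26; SD, n = 4); in pair 4 its Western pool was at 12.24, the lowest of the 8 pools, and the other 7 lay between 12.51 and 12.82. Its other probe was highest in pair 4 too, at 0.66, and below 0 in the rest.

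The remaining members of this group were Slc25a42, a coenzyme A carrier, at -0.021 ± 0.25, Slc25a16, which has been linked to coenzyme A, at -0.088 ± 0.29, and the peroxisomal Slc25a17 at -0.044 ± 0.081 (SD, n = 4). Of the 9 measured carriers of the adenine nucleotide and phosphate group, 4 were above and 5 below 0 (51.8% of all features were above), and 0 passed an unadjusted p of 0.05 in limma (against 2.46% of all features).

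The amino acid carriers had the highest group median. Of 8 measured, 7 had a mean above 0 (51.8% of all features were above), and the median ratio was 0.12. An unadjusted p under 0.05 in limma was reached by 0 of them (against 2.46% of all features). The group median was -0.028, 0.085, 0.32 and -0.0034 in pairs 1 to 4, and 4 of the 8 were above 0 in pair 1 and in pair 4. Slc25a44, which carries branched-chain amino acids, had ratios of 0.021, 0.11, 0.50 and 0.0052, on intensities of 8.36, 8.46, 8.70 and 8.46 with squalene and 8.33, 8.35, 8.21 and 8.46 without. Most of its mean of 0.16 ± 0.23 (SD, n = 4; limma unadjusted p = 0.106) came from pair 3; the plain mean of the other 3 pairs was 0.045. Its other probe was below 0 in pairs 2 and 3, at -0.023 and -0.0073.

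Slc25a29, a carrier of basic amino acids, had ratios of 0.10, 0.15, 0.33 and -0.012 (mean 0.14 ± 0.14; SD, n = 4; limma unadjusted p = 0.0701, adjusted p = 1.00). Slc25a15, which exchanges ornithine for citrulline in the urea cycle, had -0.076, 0.061, 0.42 and 0.14 (mean 0.14 ± 0.21; SD, n = 4), and Slc25a38, the glycine carrier of heme synthesis, had 0.033, 0.15, 0.29 and -0.062 (mean 0.10 ± 0.15; SD, n = 4). Pair 3 was the highest in all 3 of these carriers. Slc25a48 was counted in this group by its listed role, which these data do not test. It was at 0.14 ± 0.38 (SD, n = 4), with 0.30 and 0.60 in pairs 3 and 4 and values below 0 in pairs 1 and 2. Slc25a22, a glutamate carrier, was the only measured member of the group with a mean below 0, at -0.086 ± 0.10 (SD, n = 4).

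Slc25a12 and Slc25a13 are the aspartate-glutamate carriers of the malate-aspartate shuttle, and Slc25a13, known as citrin, is the main form in liver. Citrin had log2 intensities of 12.60, 12.87, 13.10 and 12.69 in squalene pools and 12.88, 12.59, 12.51 and 12.92 in Western pools. Its ratios of -0.28, 0.29, 0.59 and -0.24 split by dye orientation: squalene was lower in both pairs with squalene in Cy5 and higher in both with squalene in Cy3. The mean was 0.088 ± 0.42 (SD, n = 4), while its repeat arrays differed by -0.053 in pair 1 and 0.0058 in pair 2. Slc25a12 had ratios of 0.084, -0.17, 0.036 and 0.15, with a mean of 0.025 ± 0.14 (SD, n = 4), and its split ran the other way.

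**Figure D3:**
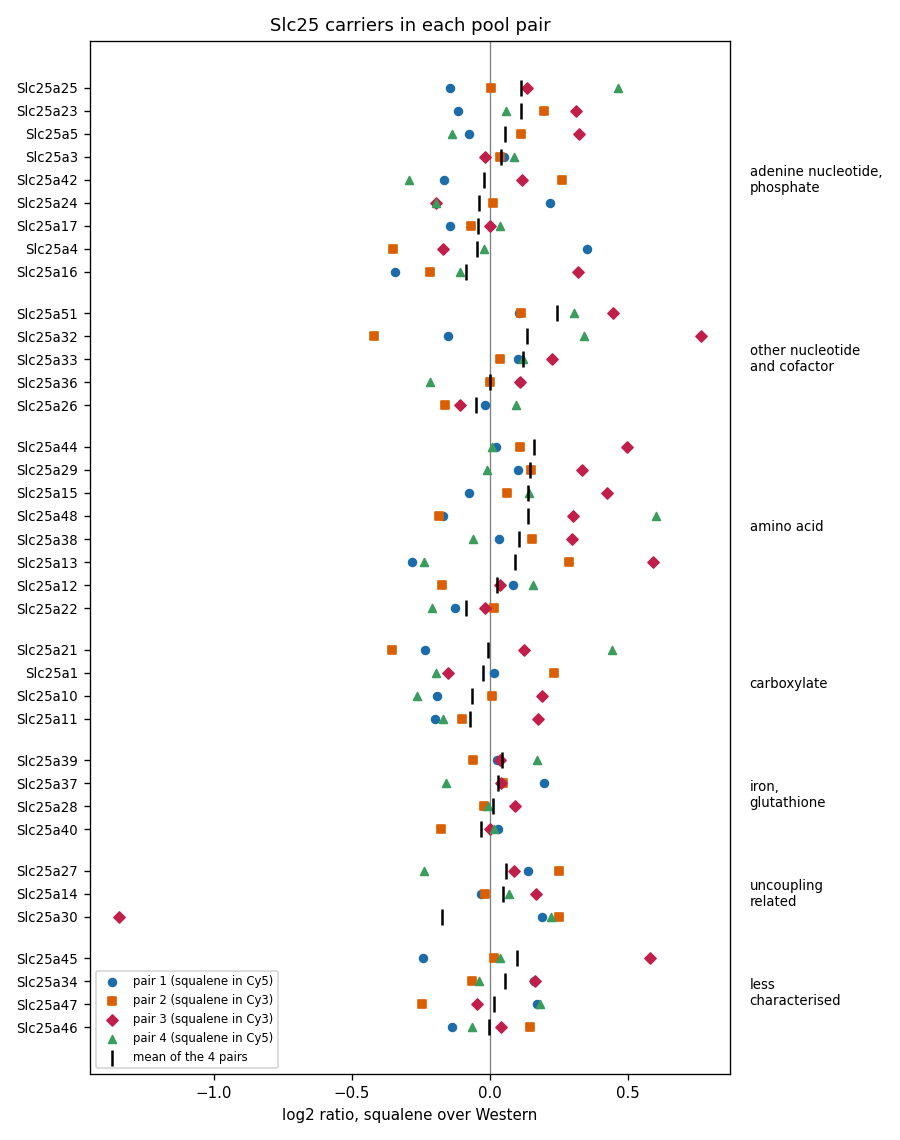
Log2 ratio of squalene over Western in each pool pair (coloured markers) and fitted mean (black bar) for 37 of the measured carriers, grouped by substrate. Pair 3 is the rightmost marker in most amino acid carriers, and the pair 3 value of Slc25a30, at -1.34, is the lowest of all.

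The 4 carboxylate carriers had means below 0, all small (51.8% of all features were above 0). Slc25a1, which exports citrate for lipid and sterol synthesis, had ratios of 0.013, 0.23, -0.15 and -0.20 (mean -0.026 ± 0.19; SD, n = 4). The dicarboxylate carrier Slc25a10 had -0.19, 0.0061, 0.19 and -0.27 (mean -0.067 ± 0.20; SD, n = 4), and the oxoglutarate carrier Slc25a11 had -0.20, -0.10, 0.17 and -0.17 (mean -0.074 ± 0.17; SD, n = 4). For both, pairs 1 and 4 were the lowest and pair 3 the highest. The oxodicarboxylate carrier Slc25a21 had ratios of -0.24, -0.35, 0.12 and 0.44, so that pairs 1 and 2 stood against pairs 3 and 4 (mean -0.0072 ± 0.36; SD, n = 4).

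The iron and glutathione carriers had SDs between pairs of 0.054 to 0.15. The mitoferrins Slc25a28 and Slc25a37 bring iron into mitochondria, and Slc25a37 is the form of red cell precursors. Slc25a28 had ratios of -0.023, -0.021, 0.089 and -0.0061, and Slc25a37 had 0.19, 0.047, 0.039 and -0.16, with means of 0.0098 ± 0.054 and 0.030 ± 0.15 (SD, n = 4). The red cell marker list had medians of 0.071, -0.50, -1.58 and 0.14 in the same pairs, so Slc25a37 was at 0.047 and 0.039 in the pairs where the red cell list was lowest; the part of red cells in these values was not tested. The other Slc25a37 probe read 0.64 in pair 2. The glutathione importers Slc25a39 and Slc25a40 were at 0.041 ± 0.10, with ratios of 0.024, -0.063, 0.036 and 0.17, and at -0.034 ± 0.10, with ratios of 0.028, -0.18, -0.00016 and 0.013 (SD, n = 4).

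Slc25a30, a carrier related to the uncoupling proteins, gave the widest single value of the family. Its intensity in pairs 1 to 4 was 8.83, 8.35, 7.64 and 8.50 with squalene and 8.64, 8.10, 8.99 and 8.28 without. In pair 3 the squalene pool was the lowest and the Western pool the highest of all 8 pools, and the ratio was -1.34, against 0.19, 0.25 and 0.22 in pairs 1, 2 and 4. The mean was -0.17 ± 0.78 (SD, n = 4; limma unadjusted p = 0.530, adjusted p = 1.00). The plain mean of the other 3 pairs was 0.22 without replicate 3 and -0.31 without replicate 2, so the sign of the mean rested on pair 3. The fitted ratio was 0.23 without replicate 3 and -0.57 without replicate 2. In both of these fits only pairs 1 and 4 gave the spread between pairs. Pair 3 was hybridised on 1 array, so no repeat array bears on that value. The related Slc25a14 had ratios of -0.032, -0.019, 0.16 and 0.070 (mean 0.046 ± 0.091; SD, n = 4), and Slc25a27 had 0.14, 0.25, 0.087 and -0.24 (mean 0.059 ± 0.21; SD, n = 4).

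Of carriers whose substrate is less settled, Slc25a47, known for its expression in liver, had intensities of 14.87 to 15.18 in squalene pools and 14.86 to 15.12 in Western pools. Its ratios were 0.17, -0.24, -0.046 and 0.18 (mean 0.015 ± 0.20; SD, n = 4), which split by dye orientation. Slc25a45 had ratios of -0.24, 0.015, 0.58 and 0.035 (mean 0.10 ± 0.35; SD, n = 4), again highest in pair 3, and the plain mean of the other 3 pairs was -0.064. Slc25a34 had ratios of 0.16, -0.066, 0.16 and -0.040 (mean 0.053 ± 0.12), and Slc25a46 was at -0.0050 ± 0.12 (SD, n = 4). The 8 carriers that did not pass the filter were Slc25a2, Slc25a18, Slc25a31, Slc25a35, Slc25a41, Slc25a43, Slc25a53 and Slc25a54. Slc25a35 and Slc25a41 were well above background in 1 Western pool each and the other 6 in none, so no ratio is given for them.

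Across the family, the pool pairs differed more than the diets did. The median carrier ratio was -0.020, 0.012, 0.13 and -0.00047 in pairs 1 to 4, against 0.0092, -0.0086, -0.012 and 0.0065 for all features. Pair 3 stood out: 29 of 38 carriers were above 0 there (76.3%), against 47.8% of all features. The counts were 18 in pair 1 (47.4%, against 52.6%), 22 in pair 2 (57.9%, against 48.2%) and 19 in pair 4 (50%, against 51.4%). Of the related lists below, 9 of 10 urea cycle and glutamate enzymes were above 0 in pair 3, with a median of 0.27. So were 13 of 16 carrier import genes, 10 of 14 cofactor enzymes and 13 of 19 genes for other mitochondrial transport. Biogenesis and mass genes had 7 of 13 above 0, shuttle and citrate enzymes 5 of 11 and other carrier-fold proteins 1 of 4. The red cell median was lowest in pair 3, at -1.58, and was -0.50 in pair 2. The Kupffer cell median was -0.54 in pair 3 and -0.43 in pair 4. The median of the stellate cell and fibroblast list was -0.50 in pair 3 and -0.81 in pair 2. In pair 2 that list ran from -1.45 for Col1a1 to 0.27 for Rgs5, with Lrat at -0.16. In pair 3 it ran from -1.16 for Timp1 to 0.11 for Lrat. In pair 3 the endothelial median was -0.24 and the lymphocyte median -0.16. The hepatocyte markers had medians of 0.12, -0.28, -0.16 and 0.27 in pairs 1 to 4. Over pools, the mean log2 intensity of the 8 red cell markers ran from 11.19 to 11.79 with squalene and from 11.47 to 12.39 without. For the 12 Kupffer cell markers it ran from 11.36 to 12.27 and from 11.42 to 12.10. For the 10 stellate cell and fibroblast markers it ran from 9.37 to 10.05 and from 9.62 to 10.18. The part of these cells in the carrier values was not tested.

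**Figure D4:**
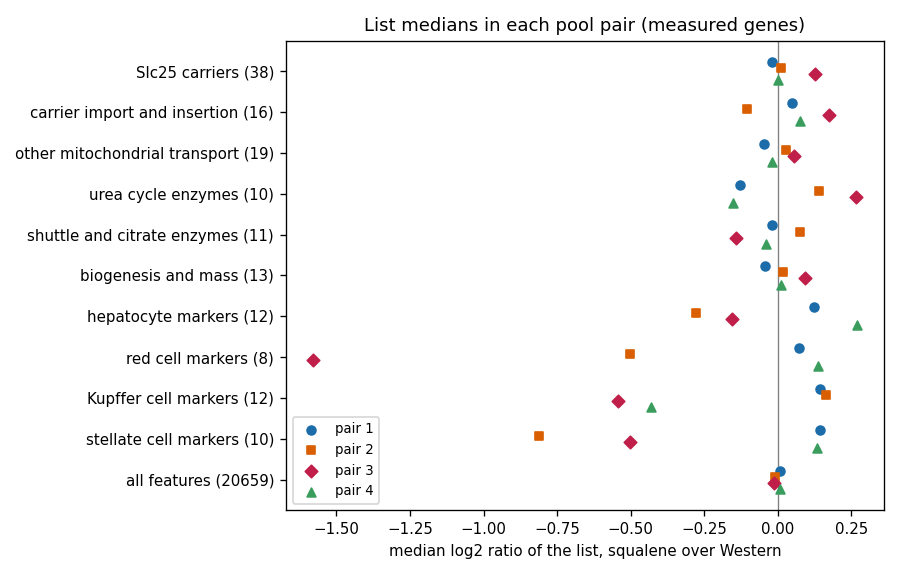
Median log2 ratio of squalene over Western in each pool pair for the carriers, lists of related genes and markers of liver cells, with the number of measured genes in brackets. The stellate cell list also holds fibroblast markers. The carrier median of pair 3, at 0.13, lies to the right of the other pairs, while the red cell median of pair 3 is at -1.58 and the medians of all features lie at 0 within 0.012.

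In 12 carriers pairs 1 and 4 both lay below pairs 2 and 3 (31.6%, against 22.3% of all features), and in 6 they both lay above (15.8%, against 26.5%). The 12 included citrin, Slc25a42, Slc25a5, Slc25a10 and Slc25a11, and the 6 were Slc25a3, Slc25a4, Slc25a12, Slc25a26, Slc25a40 and Slc25a47. The largest gap among the 12 was that of citrin, with a mean of -0.26 in pairs 1 and 4 and 0.44 in pairs 2 and 3. Among the 6 it was that of Slc25a4, with 0.16 and -0.26. Different pools were used in each orientation, so a dye effect and a difference between those pools cannot be told apart; the fitted means average over both orientations, but their SEs leave this difference out.

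**Figure D5:**
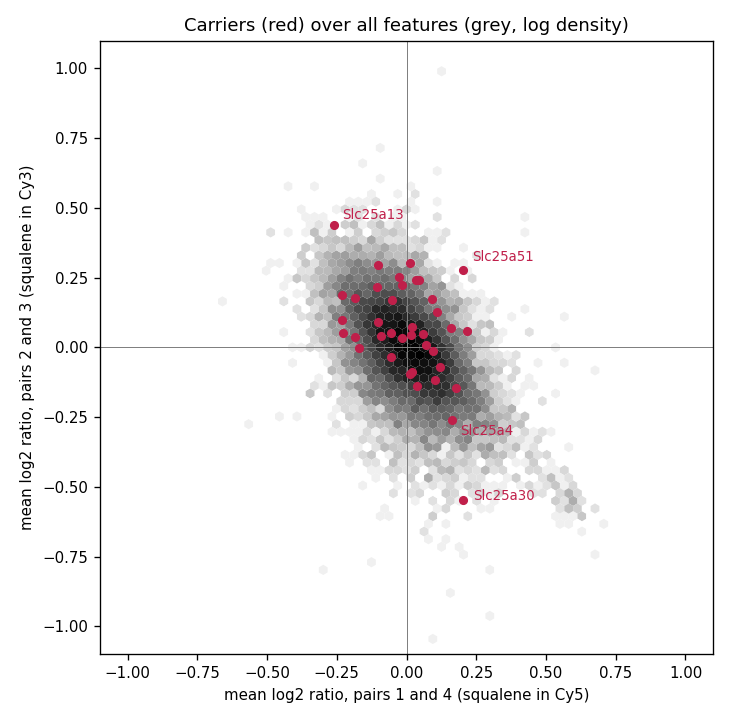
Mean log2 ratio of pairs 1 and 4 (horizontal) against pairs 2 and 3 (vertical) for the 38 measured carriers (red) over the density of all other features (grey, log scale; features beyond the axes are not shown). Slc25a13 lies at the upper left, at -0.26 and 0.44, Slc25a51 is above 0 on both axes and Slc25a30 is pulled down by its pair 3.

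Carriers reach the inner membrane through the TOM pore, small TIM chaperones and the TIM22 insertase. All 16 listed genes of this route were measured, and 14 had a mean above 0 (51.8% of all features were above). The median ratio was 0.066, and 0 passed an unadjusted p of 0.05 in limma in either direction (against 2.46% of all features). By pair, 10, 4, 13 and 9 of the 16 were above 0 in pairs 1 to 4. The chaperone Timm9 was at 0.11 ± 0.39 and the TOM subunit Tomm7 at 0.067 ± 0.079 (SD, n = 4). As with the carriers, the list median was highest in pair 3, at 0.18, while it was -0.10 in pair 2.

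Of 5 proteins of the carrier fold with other symbols, 4 were measured and 0 passed an unadjusted p of 0.05 in limma (against 2.46% of all features). Ucp2, an uncoupling protein, was at -0.095 ± 0.20 and Ucp3 at -0.095 ± 0.21 (SD, n = 4), and the brown fat protein Ucp1 was not measured. Of 19 measured genes for other mitochondrial transport, 1 was lower at an unadjusted p under 0.05 in limma and 0 higher (against 1.42% of all features lower and 1.05% higher). This was the sideroflexin Sfxn3, at -0.18 ± 0.40 (SD, n = 4; limma unadjusted p = 0.0208, adjusted p = 1.00), with ratios of 0.20, -0.51, -0.54 and 0.13 that split by dye orientation. The call was lost in 7 of 15 alternatives, among them the fit without the dye term (limma unadjusted p = 0.279). Mpc1, a subunit of the pyruvate carrier, was at 0.11 ± 0.11 (SD, n = 4).

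None of 11 shuttle and citrate enzymes, 10 urea cycle and glutamate enzymes or 14 cofactor enzymes passed an unadjusted p of 0.05 in limma (0, 0 and 0, against 2.46% of all features). Gpd1, of the glycerol phosphate shuttle, was at -0.18 ± 0.27 (SD, n = 4). The mitochondrial arginase Arg2 was at -0.15 ± 0.11, and Cps1, which starts the urea cycle, at 0.16 ± 0.44 (SD, n = 4). Cps1 had ratios of -0.13, 0.31, 0.71 and -0.25, with the pairs in nearly the order seen for citrin. Pank3, a pantothenate kinase at the first step of coenzyme A synthesis, had ratios of 0.11, 0.11, 0.13 and 0.080 (mean 0.11 ± 0.022; SD, n = 4; limma unadjusted p = 0.0941), above 0 in every pair, and Pank1 was at -0.15 ± 0.24 (SD, n = 4).

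Of 13 genes of mitochondrial biogenesis and mass, 1 was higher at an unadjusted p under 0.05 in limma and 0 lower (against 1.05% and 1.42% of all features). This was the matrix chaperone Hspd1, at 0.16 ± 0.16 (SD, n = 4; limma unadjusted p = 0.0351, adjusted p = 1.00), with ratios of 0.25, 0.067, -0.014 and 0.33. The call was lost in 8 of 15 alternatives, among them each that left out 1 pair and the fit without the dye term (limma unadjusted p = 0.0954). The coactivator Ppargc1a, which drives mitochondrial biogenesis, was at 0.059 ± 0.18 (SD, n = 4). The list had a median of 0.010.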

How the data were processed

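Hepatic RNA was measured on two-colour Agilent mouse arrays. The authors deposited spot and local background intensity per channel from Feature Extraction (version 10.7.3.1, per the file headers), and intensity values already background-subtracted and dye-normalised by that software. Other deposited columns held the software's marks for controls, outliers and signal above background. Their deposited value table is in log10 units with no processing described. It equalled log10 of squalene over Western median signal within 0.001 for at least 99.93% of spots, which settles scale, centring (none) and direction. Its column medians were 0.254 and 0.270 (pair 1), -0.217 and -0.257 (pair 2), -0.270 (pair 3) and 0.259 (pair 4). A further 2 cells in each pair 1 column were too large for a log ratio, so those deposited columns were entered as a score and the cells left out.

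Median signals were corrected with normexp (offset 50) and loess in limma 3.58.1 (R 4.3.3). Outlier spots were left out. Spots were averaged by probe, and repeat arrays by pool pair. Probes well above background in at least 3 of 4 pairs in 1 diet's channel were kept (26854 of 55681). Accessions were named through RefSeq for GRCm38.p6, which named 26762 of the 55681 probes before the filter. Of the 20659 features, 13312 had a gene symbol, and the rest kept the array's own name. The brightest probe stood for a gene. The linear model had terms for squalene and for dye (lmFit, eBayes), with Benjamini-Hochberg adjustment over 20659 features. Intensities per pool are after loess and Aquantile. The number of arrays limits the precision. The fit was also run on simulated ratios, with normal errors drawn independently for each gene and pair. That run bears on no result given here.

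The members and lists were chosen with earlier results of these data known. Values in each pair are given for carriers with an unadjusted p under 0.05, the 2 smallest p and the largest SD per substrate group, and set paralogs; pair values of Slc25a1, Slc25a3, Slc25a15, Slc25a38, Slc25a47 and Cps1 were added after they were seen. Related lists name genes under 0.05, otherwise the 2 with the smallest p; Mpc1 and Ppargc1a were added after their values were seen. Some genes, family members among them, are counted or left out without being named and are not reported here. Protein sequences were not used here. Slides, scans and pools were as in the headers and labels; the 2 slides were scanned separately, and pairs 3 and 4 were on slide 2 alone.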

Additional observations from a re-analysis of the deposited data

Results flagged for a closer look

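Dixon's ratio at the 95% level set 1 of the 4 pairs apart in 3 of the 38 measured carriers. Its nominal rate for normal values is about 5% of groups. The share over all features is not given here, so the count cannot be called high or low for these arrays. Slc25a30 was at -1.34 in pair 3, with the nearest other pair at 0.19. Slc25a40 was at -0.18 in pair 2, with the nearest at -0.00016; its repeat arrays differed by 0.25 in pair 1 and 0.053 in pair 2. Slc25a28 was at 0.089 in pair 3, with the nearest at -0.0061. No cause was tested.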

How the results depend on the processing

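No carrier passed an adjusted p of 0.05 in limma under any of the 15 alternatives with a test (0 in each); the lowest adjusted p was 0.417, without replicate 2. Carriers at an unadjusted p under 0.05 in limma numbered 0 of 38 with median centring in place of loess. The count was also 0 of 38 with the mean over probes and with the authors' deposited table. It was 2 of 46 without a probe filter, 2 of 38 with slide 2 arrays alone, and 0 to 6 of 38 when 1 pool pair was left out. Related list genes at that threshold numbered 1 with processed signals, 0 with median centring, without the dye term and with the deposited table, 5 without a filter, and 0 to 12 leaving out a pair. Over all features the count was 201 with median centring, 937 without a filter, 254 without the dye term, 182 with the deposited table, and 366 to 1316 leaving out a pair; the adjusted count was 2 with median centring, 4 with all 6 arrays and a slide term, and 8 with the deposited table. The carrier median stayed within 1 SD between pairs (0.067) under every alternative: it was 0.0087 with processed signals, 0.0054 without a filter, -0.0094 within slide 1, 0.029 within slide 2, and 0.0067 to 0.056 leaving out a pair.

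Of 384 values of 24 named carriers, 33 in 17 carriers changed sign: 16 on leaving out a pair, 12 within slide 1, which holds pairs 1 and 2 only and gives no test, and 5 elsewhere. Slc25a13, Slc25a23 and Slc25a39 did so within slide 1 alone, at -0.010, -0.013 and -0.0086. With processed signals Slc25a14 was at -0.0069 and Slc25a28 at -0.010. Slc25a21 was at 0.0068 with median centring, 0.0057 with slide 2 alone and 0.011 with the deposited table. Leaving out a pair gave fitted ranges of -0.028 to 0.077 for Slc25a12, -7.2e-05 to 0.092 for Slc25a14, -0.18 to 0.16 for Slc25a21, -0.14 to 0.062 for Slc25a24, -0.039 to 0.27 for Slc25a25, -0.034 to 0.15 for Slc25a27, -0.018 to 0.037 for Slc25a28, -0.57 to 0.23 for Slc25a30, -0.16 to 0.43 for Slc25a32, -0.0036 to 0.11 for Slc25a34, -0.058 to 0.12 for Slc25a37, -0.14 to 0.044 for Slc25a4, -0.078 to 0.010 for Slc25a40 and -0.044 to 0.24 for Slc25a45. The cause was not tested. Pairing was already part of the fits, because each ratio sets the pools of 1 replicate number against each other on an array. The alternative for protein motifs was not run.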
